A study of Homo sapiens with 12 samples.

Results

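A set of 8 genes used as markers of tubular injury and of epithelial dedifferentiation was followed in HK-2 cells: HAVCR1, LCN2, CLU, SOX9, VIM, SPP1, PROM1 and TNFRSF12A. They were chosen by name, and every probe set that carries one of these symbols alone was read, which gave 14 probe sets of 54675. For each gene the brightest of these stands for it, and tests were run where it lay at or above a log2 level of 4 on 3 or more arrays. This held for 7 of the 8 genes and for 10784 of the 19775 genes with a probe set.

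HK-2 cells are human kidney cells of the proximal tubule, made immortal as a line. The 4 groups were cells given the treatment that the labels call Fk for 48 h, control vehicle for 48 h, Fk for 12 h, and control vehicle for 12 h, with 3 arrays each and 12 in all. All cells came from this 1 line, grown with EGF at 10 ng/ml, hydrocortisone, insulin, transferrin and selenite in medium with 5 mM glucose; wells held 700000 cells and 2 ml, and treatment began 24 h after seeding, at about 90% confluency. The labels do not expand the name Fk, a dose was not used here, and the arrays of a group are called biological replicates, with no statement of separate cultures, so the p-values measure the spread between these samples, which may in part be technical.

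When the proximal tubule is injured, surviving cells lose part of their differentiated transport program, take on a flatter shape, divide and, where repair succeeds, differentiate again. HAVCR1 (KIM-1), LCN2 (NGAL), CLU and SPP1 encode surface or secreted proteins that injured tubules make and that are measured in urine or tissue as injury markers. SOX9 is a transcription factor switched on in regenerating tubule cells, VIM is the intermediate filament protein of cells that have left the epithelial state, PROM1 (CD133) marks scattered tubule cells with progenitor features, and TNFRSF12A (Fn14) is the receptor of the cytokine TWEAK.

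The promoters of HAVCR1, LCN2 and VIM are shown because HAVCR1 and LCN2 lay at opposite ends on the same arrays and VIM differed between the times in control cells. Each runs 5′ to 3′ on the strand of the gene, from 250 bases before the annotated start to 50 bases after it, as given by RefSeq on GRCh38.p14. Capitals mark matches to motifs that were chosen with the values known and searched on both strands. They were the AP-1 site with the letters TGANTCA, the NF-kB site, the TATA box with the letters TATAAA, the box of the letters CCAAT, and the GC box with the letters GGGCGG. None of the matches shown overlaps another.
HAVCR1 promoter, chr5:157059067-157059366, minus strand: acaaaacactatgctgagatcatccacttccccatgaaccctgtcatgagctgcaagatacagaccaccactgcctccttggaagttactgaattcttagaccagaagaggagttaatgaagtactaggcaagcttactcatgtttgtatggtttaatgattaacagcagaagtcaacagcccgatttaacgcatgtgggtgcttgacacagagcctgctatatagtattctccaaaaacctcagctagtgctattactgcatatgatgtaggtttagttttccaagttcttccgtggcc
LCN2 promoter, chr9:128149203-128149502, plus strand: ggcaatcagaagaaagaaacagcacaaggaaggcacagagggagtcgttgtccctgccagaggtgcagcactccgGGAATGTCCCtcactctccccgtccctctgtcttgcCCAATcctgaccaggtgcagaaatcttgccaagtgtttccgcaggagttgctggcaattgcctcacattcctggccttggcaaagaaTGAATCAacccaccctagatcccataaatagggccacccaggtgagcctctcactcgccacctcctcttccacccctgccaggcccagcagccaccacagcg
VIM promoter, chr10:17227991-17228290, plus strand: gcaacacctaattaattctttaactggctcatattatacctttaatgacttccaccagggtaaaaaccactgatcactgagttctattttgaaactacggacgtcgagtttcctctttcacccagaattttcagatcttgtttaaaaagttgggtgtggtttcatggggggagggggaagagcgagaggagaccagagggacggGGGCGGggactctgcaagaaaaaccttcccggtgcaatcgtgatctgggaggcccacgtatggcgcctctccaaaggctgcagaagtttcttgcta

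The HAVCR1 window lies inside the gene's span, chr5:157029413-157069407, so its start is not the 5′ end of that span. This window held none of the 5 motifs. The LCN2 window held an NF-kB match, GGAATGTCCC, read on the minus strand, and its first base lies at position -175 from the start. It also held the CCAAT letters at -139 and an AP-1 match, TGAATCA, at -52. The VIM window held a GC box, GGGCGG, at -46. None of these motifs is rare: of 35116 promoter windows of the same length, 7.71% held the AP-1 letters, 11.3% the NF-kB letters, 34.6% the CCAAT letters and 45.0% those of the GC box. A match is a description of the letters and does not show that a factor binds there.

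A single array stood apart. Fk 12 h replicate 3 correlated at 0.942 and 0.946 with the other Fk 12 h arrays, which correlated at 0.994 with each other, and 15.4% of tested genes lay more than 1 log2 unit from the mean of those 2 arrays. Several values that rest on it are given with and without it. Array medians ran from 2.85 to 2.94. Of the 12 proximal tubule markers with a probe set, DPP4, CDH16 and PAX8 reached the level. Group means of DPP4 lay between 10.97 and 11.59. The receptors and transporters LRP2, CUBN, SLC34A1, SLC5A2, SLC22A6, SLC22A8 and AQP1 and the brush border enzymes GGT1 and ANPEP were below the level. Of markers of other cells, the fibroblast genes COL1A1, DCN and LUM reached it (3 of 7), as did PECAM1 (1 of 5 endothelial), AQP2 (1 of 7 of other tubule segments), PODXL and SYNPO (2 of 4 podocyte) and no leukocyte gene of 5. The summed log2 values of the 7 fibroblast markers ran from 35.15 to 38.04 in Fk 48 h arrays, from 35.09 to 38.33 in control 48 h arrays, from 38.20 to 38.93 in Fk 12 h arrays and from 36.59 to 38.37 in control 12 h arrays; of the 3 past the level, COL1A1 alone was called in any comparison, lower at 48 h than at 12 h under Fk, and its values are given with the mesenchymal genes. In these bulk samples, fewer cells of a type and less RNA per cell cannot be told apart.

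All 7 tested genes were past the level on all 12 arrays, and Fk moved none of the 7 past the threshold, an adjusted p under 0.05 in limma over all genes, at 12 h or at 48 h (0% of all genes were called at either time, and CLU at 12 h and VIM at 48 h had an unadjusted p under 0.05). In control cells SOX9 and VIM fell and CLU rose at 48 h relative to 12 h, a comparison in which 21.5% of all genes were called. Levels are compared between arrays for 1 probe set at a time, since a log2 array value does not rank 1 gene against another. The plot of log2 values by array shows all 8 genes.

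**Figure D1:**
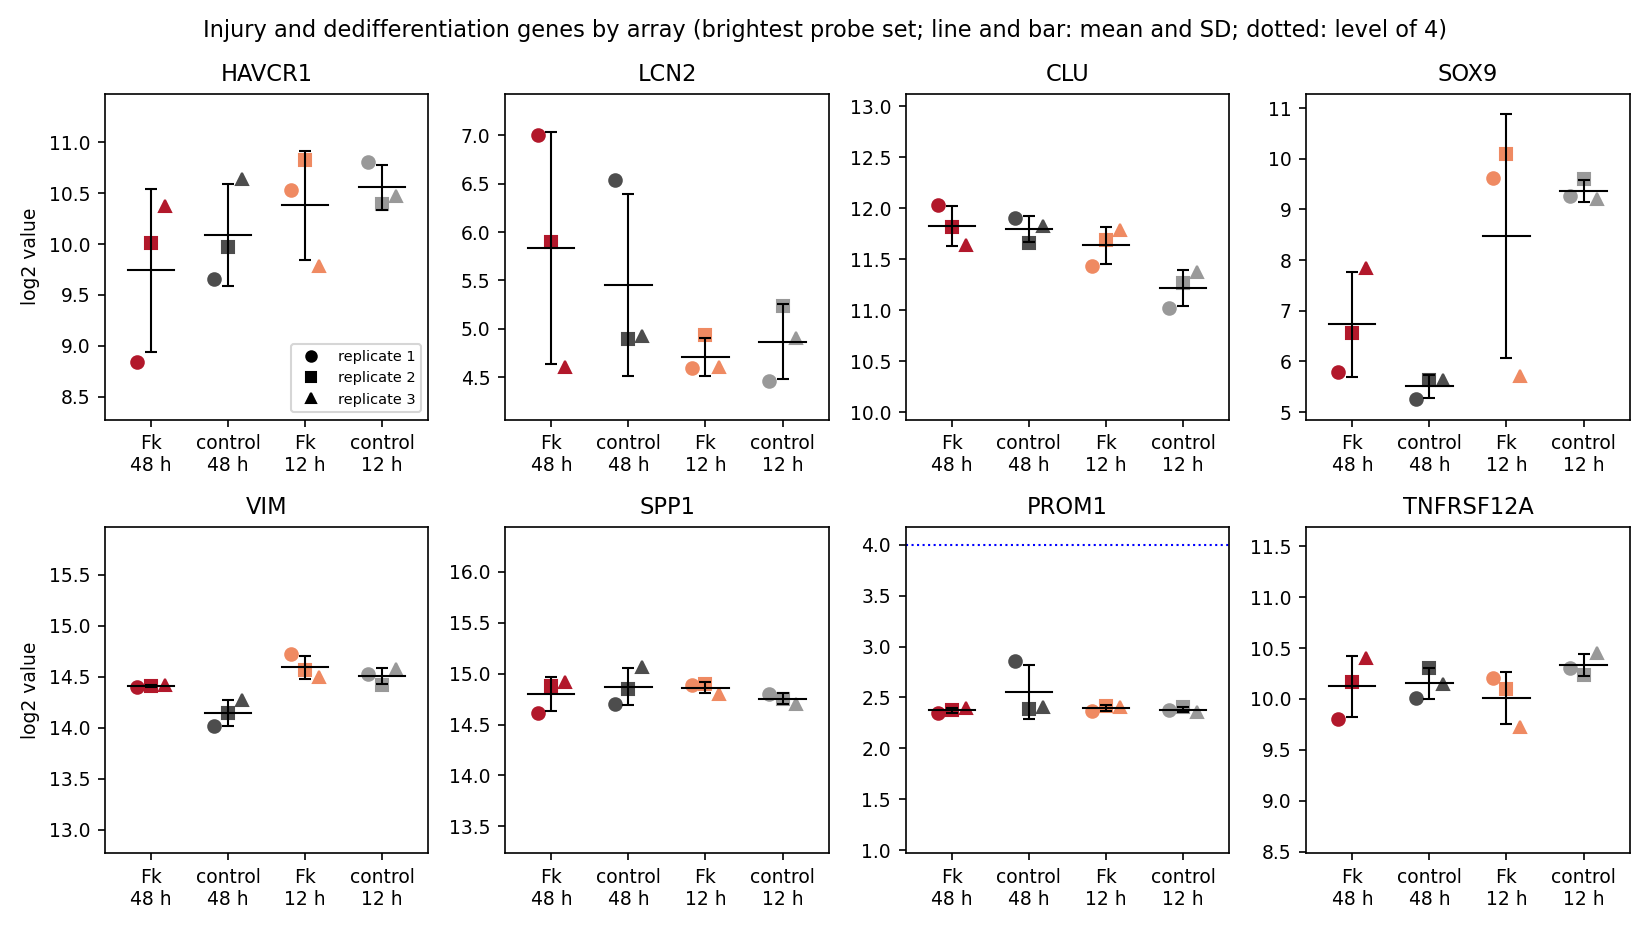
Log2 value of the brightest probe set of each of the 8 genes on each of the 12 arrays; x axis, the 4 groups; y axis, log2 value; symbols, replicates; line and bar, group mean and SD of 3 arrays; dotted line, the level of 4. SOX9 lies near 9 in control 12 h arrays and under 6 in control 48 h arrays, 1 Fk 12 h array lies with the 48 h arrays, and PROM1 is below the level on every array.

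SOX9 had the widest range of the set, 4.85 log2 units over the 12 arrays. The gene is at chr17:72121020-72126416 (GRCh38.p14, RefSeq, as for the positions below). Its brightest probe set, 202936_s_at, read 5.80, 6.55 and 7.84 in Fk 48 h arrays, 5.25, 5.64 and 5.64 in control 48 h arrays, 9.62, 10.10 and 5.70 in Fk 12 h arrays, and 9.26, 9.60 and 9.20 in control 12 h arrays. The control arrays of the 2 times were far apart, Fk 12 h replicate 3 lay among the 48 h arrays, and each Fk 48 h array was above every control 48 h array. In order of group means, control 12 h (9.35 ± 0.22) came first, then Fk 12 h (8.47 ± 2.41), Fk 48 h (6.73 ± 1.03) and control 48 h (5.51 ± 0.22; SD, n = 3 each). Only the neighbours Fk 48 h and control 48 h did not overlap, and their difference did not pass the test.

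In control cells SOX9 was 14.4-fold lower at 48 h than at 12 h, a log2 change of -3.85 (95% interval -5.94 to -1.75; adjusted p = 0.0184, limma with Benjamini-Hochberg adjustment over all 10784 genes). This was the 10th largest change of all genes tested in that comparison. The second probe set of SOX9, 202935_s_at, gave -3.47 (adjusted p = 0.0253 over all probe sets, of which 17.9% were called). The call did not hold without control 12 h replicate 1, 2 or 3, or without control 48 h replicate 1 or 2 (adjusted p between 0.0520 and 0.0639), while the change itself stayed between -3.92 and -3.72 without any 1 array; without Fk 12 h replicate 3, whose spread enters the shared error, its adjusted p was 0.00052.

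Under Fk the same time difference of SOX9 was -1.75 (interval -3.85 to 0.35; adjusted p = 0.204). Without Fk 12 h replicate 3 it was -3.13 (adjusted p = 0.00244), and without Fk 12 h replicate 2 it was -0.93. The Fk effect on SOX9 at 48 h was +1.22 (2.33-fold; interval -0.88 to 3.32; adjusted p = 1.00), and +0.67 without Fk 48 h replicate 3. At 12 h the effect was -0.88 (interval -2.98 to 1.22; adjusted p = 0.870) with all arrays and +0.51 (adjusted p = 0.894) without Fk 12 h replicate 3. The difference between the effects at 48 h and 12 h was 2.10 (interval -0.87 to 5.07; adjusted p = 0.996), and 0.71 without that array.

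VIM, at chr10:17228241-17237593, moved within 0.70 log2 units over the 12 arrays. Its probe set 201426_s_at read 14.40, 14.41 and 14.42 in Fk 48 h arrays, 14.02, 14.14 and 14.27 in control 48 h arrays, 14.72, 14.56 and 14.50 in Fk 12 h arrays, and 14.52, 14.42 and 14.58 in control 12 h arrays. All 3 control 48 h arrays lay below every other array. Fk 12 h and control 12 h overlapped, and Fk 48 h lay just above control 48 h and just below Fk 12 h. In control cells VIM fell by 0.36 at 48 h relative to 12 h (1.29-fold; interval -0.60 to -0.12; adjusted p = 0.0373). This call was near the threshold: without any 1 array its adjusted p ran from 0.0211 to 0.134, and it was not called without Fk 12 h replicate 2, without Fk 48 h replicate 2, without any one of the control 12 h arrays, or without control 48 h replicate 1 or 2.

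The Fk effect on VIM at 48 h was +0.27 (1.20-fold; interval 0.03 to 0.51), with an unadjusted p of 0.0319 and an adjusted p of 0.903 from limma. At 12 h the effect was +0.09 (interval -0.15 to 0.33; adjusted p = 0.891). The other VIM probe set, 1555938_x_at, read 2.76 to 3.51, below the level on every array, and was not tested.

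CLU, a secreted chaperone that rises in injured kidney, was the member called upward with time. The gene is at chr8:27596917-27614700. Its brightest probe set, 208792_s_at, read 12.03, 11.82 and 11.64 in Fk 48 h arrays, 11.90, 11.65 and 11.82 in control 48 h arrays, 11.43, 11.68 and 11.79 in Fk 12 h arrays, and 11.02, 11.26 and 11.37 in control 12 h arrays. The control 12 h arrays were below every other array, and the other 3 groups overlapped one another. In control cells CLU rose by 0.58 at 48 h relative to 12 h (1.49-fold; interval 0.24 to 0.91; adjusted p = 0.0233). Without control 12 h replicate 1 or 2, or control 48 h replicate 1, the call was lost (adjusted p = 0.0864, 0.0599 and 0.0855).

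The Fk effect on CLU at 12 h was +0.42 (1.33-fold; interval 0.08 to 0.75; unadjusted p = 0.0191, adjusted p = 0.673 by limma). Without Fk 12 h replicate 3 this effect was +0.34 (unadjusted p = 0.0592, adjusted p = 0.664 by limma). At 48 h the effect was +0.03 (interval -0.30 to 0.37; adjusted p = 1.00), and the difference between the effects was -0.38 (interval -0.86 to 0.09; adjusted p = 0.996). Fk 12 h cells thus read 11.63 ± 0.18, between 11.79 ± 0.13 in control 48 h cells and 11.22 ± 0.18 in control 12 h cells (SD, n = 3 each).

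The 4 probe sets of CLU were not alike. The second brightest, 208791_at, gave an Fk effect of +0.58 at 12 h (adjusted p = 0.668 over all probe sets) and a control time change of +0.61 (adjusted p = 0.0366), close to the first. The dimmer 222043_at, between 6.76 and 7.64, gave +0.22 for Fk at 12 h and +0.32 for control time (adjusted p = 0.328), and its Fk effect at 48 h was -0.18. The fourth, 1559228_at, read 2.85 to 2.97 and was not tested.

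HAVCR1 encodes the phosphatidylserine receptor by which injured tubule cells take up debris, and it was past the level on every array. The gene is at chr5:157029413-157069407. It read 8.84, 10.01 and 10.38 in Fk 48 h arrays, 9.65, 9.97 and 10.64 in control 48 h arrays, 10.53, 10.83 and 9.78 in Fk 12 h arrays, and 10.80, 10.39 and 10.47 in control 12 h arrays. All neighbouring groups overlapped. Its Fk effect was -0.35 at 48 h (interval -1.25 to 0.55; adjusted p = 1.00), and +0.10 without Fk 48 h replicate 1. At 12 h it was -0.18 (interval -1.08 to 0.72; adjusted p = 0.949), and +0.12 without Fk 12 h replicate 3. A fall of 1 log2 unit in HAVCR1 lies inside both intervals.

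LCN2, which encodes a secreted carrier of iron-binding siderophores, lay near the level of 4 on most arrays. The gene is at chr9:128149453-128153453. It read 7.00, 5.89 and 4.60 in Fk 48 h arrays, 6.54, 4.89 and 4.93 in control 48 h arrays, 4.59, 4.93 and 4.60 in Fk 12 h arrays, and 4.46, 5.23 and 4.91 in control 12 h arrays. The 3 highest arrays, all at 48 h, stood above the rest, and each 48 h group also held arrays inside the range of the 12 h groups. The group means were 5.83 ± 1.20 in Fk 48 h and 5.45 ± 0.94 in control 48 h, against 4.71 ± 0.19 in Fk 12 h and 4.87 ± 0.39 in control 12 h (SD, n = 3 each). The time difference under Fk was +1.12 (interval -0.15 to 2.39; adjusted p = 0.178) and became +1.74 (adjusted p = 0.0333) without Fk 48 h replicate 3. The Fk effect was +0.38 at 48 h (interval -0.89 to 1.65; adjusted p = 1.00) and turned to -0.21 without Fk 48 h replicate 1; at 12 h it was -0.16 (adjusted p = 0.975).

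On the replicate 1 arrays at 48 h, all 7 tested genes lay at an end of their group, both in Fk and in control cells. LCN2 and CLU were highest there, and HAVCR1, SOX9, VIM, SPP1 and TNFRSF12A lowest, VIM in Fk cells by little. Across genes, the deviations of these arrays from their group means correlated at 0.798, so the shift was not particular to these genes. The map of deviations by array shows LCN2 and HAVCR1 on these arrays, beside the low SOX9 of Fk 12 h replicate 3.

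**Figure D2:**
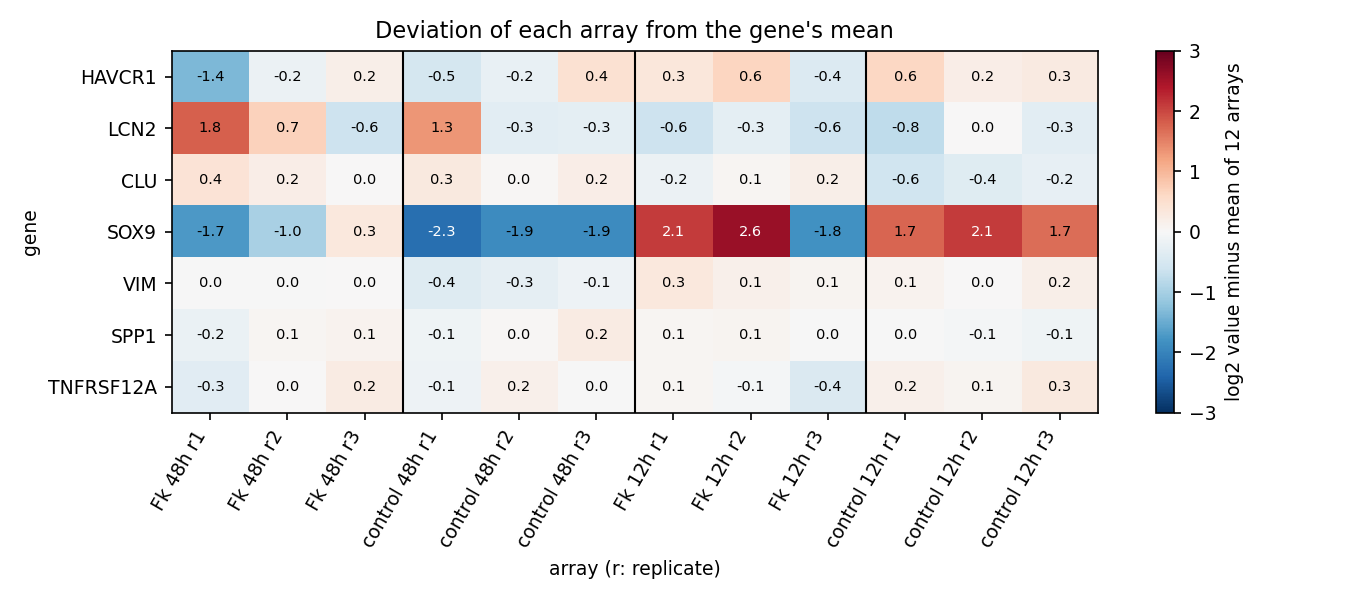
Deviation of each of the 7 tested genes (y axis) on each array (x axis, r for replicate) from its mean over the 12 arrays, in log2 units, with the value in each cell. SOX9 is the strongest pattern, and on both replicate 1 arrays at 48 h LCN2 is high while HAVCR1 is low.

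SPP1, the secreted matrix protein osteopontin, hardly varied by its brightest probe set. The gene is at chr4:87975714-87983411. Its brightest probe set, 209875_s_at, read 14.61, 14.88 and 14.92 in Fk 48 h arrays, 14.70, 14.85 and 15.06 in control 48 h arrays, 14.89, 14.89 and 14.80 in Fk 12 h arrays, and 14.80, 14.75 and 14.70 in control 12 h arrays. All of these lie within 0.45 log2 units, and neighbours in the order of group means overlapped. The Fk effects were -0.07 at 48 h (interval -0.35 to 0.21) and +0.11 at 12 h (interval -0.17 to 0.39), with adjusted p of 1.00 and 0.878. The dimmer 1568574_x_at ranged more widely, with 7.07, 6.07 and 8.47 in Fk 48 h arrays, 6.19, 7.84 and 9.03 in control 48 h arrays, 7.40, 7.68 and 7.23 in Fk 12 h arrays, and 7.17, 7.90 and 7.52 in control 12 h arrays. Its 48 h groups overlapped throughout, and its Fk effect at 48 h was -0.48 (interval -2.02 to 1.05).

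TNFRSF12A, at chr16:3020368-3022383, read 9.81, 10.17 and 10.40 in Fk 48 h arrays, 10.01, 10.31 and 10.15 in control 48 h arrays, 10.21, 10.10 and 9.72 in Fk 12 h arrays, and 10.31, 10.24 and 10.45 in control 12 h arrays. At 12 h every Fk array was below every control array. The Fk effect was -0.32 at 12 h (interval -0.71 to 0.07; adjusted p = 0.778), and -0.18 without Fk 12 h replicate 3. At 48 h it was -0.03 (interval -0.42 to 0.36; adjusted p = 1.00). PROM1, at chr4:15968228-16084023 and with the single probe set 204304_s_at, read 2.35 to 2.86 over the 12 arrays, so it was not detected above the level in any group and gave no test.

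The members' counts under Fk are set beside those of all genes. No member was called at 12 h (0% of all genes called; 6.71% had an unadjusted p under 0.05 and 1 of the 7 members did, CLU) or at 48 h (0% called; 5.18% of all genes and 1 of 7 members, VIM, had an unadjusted p under 0.05). For the mean of both times 0.00927% of genes and no member were called, and for the difference of the effects 0% and no member (3.31% of all genes and no member under an unadjusted p of 0.05). The arrays of Fk and control did not overlap for 2 of 7 members at 12 h (CLU higher, TNFRSF12A lower), against 16.4% of all genes (9.91% higher and 6.49% lower), and for 2 of 7 at 48 h (SOX9 and VIM, both higher), against 10.2% (6.14% higher). The median Fk effect of the 7 genes was 0.03 at 48 h and -0.16 at 12 h, against 0.02 and 0.01 over all genes. The median half-width of a gene's 95% interval was 0.447 log2 units at 12 h, so the number of arrays limits what could be seen.

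In control cells 3 of 7 members were called between the times, 1 higher and 2 lower, where 21.5% of all genes were called (10.6% higher and 10.9% lower). Their arrays did not overlap in 3 of 7 cases, against 50% of all genes. Under Fk no member was called between the times, where 23.2% of all genes were, and the arrays of VIM alone did not overlap (38.7% of all genes). The control and Fk time changes of the members stood side by side at -3.85 and -1.75 for SOX9, -0.36 and -0.18 for VIM, 0.58 and 0.19 for CLU, 0.59 and 1.12 for LCN2, -0.47 and -0.64 for HAVCR1, 0.12 and -0.06 for SPP1, and -0.18 and 0.11 for TNFRSF12A. Single arrays set much of the SOX9, LCN2 and HAVCR1 values. Without Fk 12 h replicate 3 the change of SOX9 under Fk was -3.13 and was called (limma adjusted p = 0.00244), where 2787 genes were called. For LCN2 the change in control cells was 0.04 without control 48 h replicate 1. Its change under Fk was 0.54 without Fk 48 h replicate 1. For HAVCR1 the change in control cells was -0.25 without control 48 h replicate 1 and -0.74 without control 48 h replicate 3. Under Fk it was -0.19 without Fk 48 h replicate 1 and -0.41 without Fk 12 h replicate 2. It was -0.94 without Fk 12 h replicate 3 and -0.96 without Fk 48 h replicate 3. None of the 7 differences between these changes, which equal the differences of the Fk effects between the times, passed the test.

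**Figure D3:**
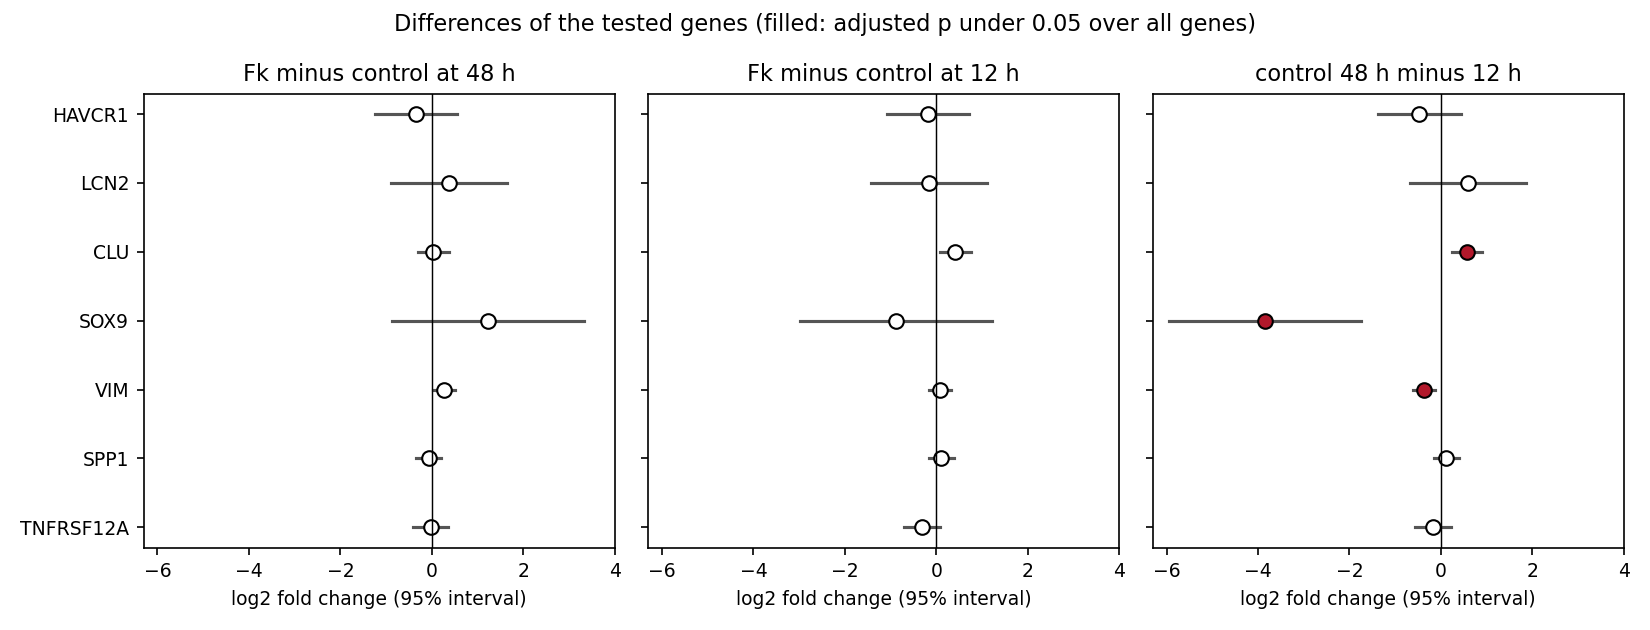
Log2 fold change (x axis) and 95% interval of the 7 tested genes (y axis) for Fk minus control at 48 h, Fk minus control at 12 h, and control at 48 h minus 12 h; filled points have an adjusted p under 0.05 over all genes. Filled points are SOX9 at -3.85, VIM at -0.36 and CLU at 0.58, all in the time comparison of control cells, and SOX9 has the widest intervals.

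Partners of these genes were examined as a list: receptors of osteopontin and lipocalin, adaptors of TNFRSF12A, relatives of SOX9 and PROM1, and filaments and linkers that work with vimentin. Of 14 tested, NES and KRT8 were called lower at 48 h in control cells and no partner was called higher (10.9% of all genes were called lower and 10.6% higher). Without Fk 12 h replicate 3, 5 partners were called, where 3438 of all genes were, against 2314 with all arrays. Without control 48 h replicate 3, 4 partners were called. Over the single arrays left out, calls among all genes ran from 1060 to 3438. NES, the intermediate filament nestin that assembles with vimentin, read 7.01, 7.71 and 8.65 in control 48 h arrays, against 9.39, 9.53 and 9.70 in control 12 h arrays. That is a change of -1.75 (adjusted p = 0.0162). KRT8, an epithelial keratin with many pseudogenes that a probe set may not tell apart, changed by -0.59 (adjusted p = 0.0227). The same 2 genes were called under Fk, with -1.49 for NES (adjusted p = 0.0290) and -0.56 for KRT8 (adjusted p = 0.0258). These calls were near the threshold. In control cells NES was not called without control 48 h replicate 1 or 2 or control 12 h replicate 2 or 3 (adjusted p between 0.0515 and 0.0617), or with the mean of its probe sets (adjusted p = 0.0622), and KRT8 was not without control 48 h replicate 1 or 2 or control 12 h replicate 3 (between 0.0620 and 0.0840). Under Fk the NES call did not hold without Fk 48 h replicate 1 or 2 or Fk 12 h replicate 1 or 2 (between 0.0598 and 0.108), and with the mean of its probe sets the change was -0.76 (adjusted p = 0.132). That of KRT8 did not hold without Fk 48 h replicate 2 or 3 or Fk 12 h replicate 1 or 3 (between 0.0510 and 0.0712).

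None of the 14 partners was called between Fk and control at either time by limma. An unadjusted p under 0.05 was found for 2 at 48 h and 1 at 12 h (5.18% and 6.71% of all genes). At 48 h the effect was positive for 13 of 14, with a median of 0.30 against 0.02 over all genes. ITGB5, an integrin chain that pairs with alpha v to bind osteopontin, differed by +0.60 (interval 0.17 to 1.04; adjusted p = 0.737), with 10.38, 10.74 and 11.01 in Fk 48 h arrays against 9.85, 9.98 and 10.49 in control 48 h arrays. With array quality weights ITGB5 was called (+0.70, adjusted p = 0.0455 by limma), where 94 of all genes were called, against 0 in the reported fit. It was called in no other setting. CD44, the hyaluronan receptor that also binds osteopontin, differed by +0.56 (adjusted p = 0.964), or by +0.34 without Fk 48 h replicate 3 and +0.30 without control 48 h replicate 1, and KRT8 by +0.37 (adjusted p = 0.904). At 12 h the effect was positive for 6 of 14.

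Among 40 other tested genes of injury and dedifferentiation, 5 were called higher and 6 lower at 48 h in control cells, where 10.6% of all genes were called higher and 10.9% lower. The 11 calls were 6 without control 48 h replicate 1 and 3 without control 48 h replicate 2. They were 6 without control 12 h replicate 1 or 2 and 3 without control 12 h replicate 3. Over all genes the 2314 calls ran from 1060 to 3438 without any single array. GDF15, a secreted stress cytokine, read 13.32, 13.33 and 12.86 in control 48 h arrays against 11.18, 10.47 and 10.48 in control 12 h arrays, a rise of 2.46 (adjusted p = 0.00196), or of 0.995 with the mean of its probe sets (adjusted p = 0.00300). ATF3, a stress-induced transcription factor, read 11.35, 11.70 and 11.30 against 6.58, 5.18 and 6.53 in the same groups, a rise of 5.36 (adjusted p = 0.00403). The other 3 that rose were ANXA1, IGFBP7 and FN1, named for completeness after their values were seen. PLAUR, the urokinase receptor, changed by -1.88 (adjusted p = 0.0113) and VCAM1, an adhesion molecule of inflamed and poorly repaired tubules, by -1.69 (adjusted p = 0.0129). Under Fk, 4 were called higher and 4 lower between the times, where 23.2% of all genes were called, among them GDF15 (+2.92, adjusted p = 0.000839) and ANXA1, a lipid-binding annexin (+0.90, adjusted p = 0.0326), higher and TWIST1, a mesenchymal transcription factor (-1.13, adjusted p = 0.00860), and S100A4 (-0.96, adjusted p = 0.0255) lower. The 8 calls were 4 without Fk 12 h replicate 3 and ran from 2 to 10 without any single array. They were 2 without Fk 48 h replicate 1 or Fk 12 h replicate 2, and 3 without Fk 48 h replicate 2. They were 4 without Fk 12 h replicate 1 or control 48 h replicate 2, and 5 without any one of the control 12 h arrays. Over all genes the 2500 calls ran from 1297 to 2787. COL1A1, a fibroblast collagen gene, was lower in the same comparison, at 7.71 ± 0.29 in Fk 48 h arrays against 8.58 ± 0.34 in Fk 12 h arrays (SD, n = 3 each), a change of -0.87 (adjusted p = 0.0104). With the mean of its probe sets the COL1A1 change was -0.34 (adjusted p = 0.0587). The part of fibroblast markers in these results was not tested. The PLAUR change was -0.75 (adjusted p = 0.159) with another of its probe sets and was not called without control 12 h replicate 3 (adjusted p = 0.0501). VCAM1 was not called without control 48 h replicate 2 or control 12 h replicate 3 (adjusted p = 0.0545 and 0.0532). The GDF15 change under Fk ran from 0.99 to 3.34 over all settings and stayed called (limma adjusted p up to 0.0207). Under Fk, ANXA1 was not called without Fk 48 h replicate 1 or 2 or any one of the Fk 12 h arrays (between 0.0549 and 0.121), and its change was +0.44 with the mean of its probe sets (adjusted p = 0.0393). S100A4 was not without Fk 48 h replicate 1 or Fk 12 h replicate 2 or 3 (between 0.0606 and 0.0963), and its change was -0.64 with array quality weights. With no filter neither ANXA1 nor S100A4 was called (adjusted p = 0.0756 and 0.0606). With only the groups compared in the fit, TWIST1, ANXA1, S100A4 and COL1A1 were not called (adjusted p = 0.0537, 0.0698, 0.0744 and 0.0759).

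None of the 40 was called by limma between Fk and control at 48 h or 12 h. Their medians were 0.00 and 0.05, against 0.02 and 0.01 over all genes. An unadjusted p under 0.05 was found for 1 at 48 h and 2 at 12 h (5.18% and 6.71% of all genes). PLAUR had the smallest p at 48 h, with 7.64, 7.68 and 9.07 in Fk 48 h arrays against 6.47, 6.81 and 7.57 in control 48 h arrays, a difference of +1.19 (interval 0.28 to 2.09; adjusted p = 0.778), and of +0.20 with another of its probe sets or +0.71 without Fk 48 h replicate 3. ATF3 differed by +2.02 at 12 h (adjusted p = 0.744), and by +0.84 without Fk 12 h replicate 3, which read 10.48 where the other Fk 12 h arrays read 7.49 and 6.39.

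Genes of proximal tubule identity, whose loss is the other side of dedifferentiation, were mostly not detected: 18 of 27 with a probe set were below the level. All 9 tested were positive in the control time comparison, with a median of 0.53 against 0.01 over all genes. The share of all genes that were positive was not counted. The changes ran from 0.05 for SLC17A3 to 1.54 for MIOX, with CDH1, the epithelial cadherin, at 1.20 (adjusted p = 0.112 by limma). Of these 9, 1 was called, MIOX, where 21.5% of all genes were called. Under Fk, 5 of the 9 were positive and 4 negative between the times, with a median of 0.42 against 0.02 over all genes. Again 1 was called, MIOX, where 23.2% of all genes were called. Without Fk 12 h replicate 3, 2 were called in each treatment, where 3438 genes were called in control cells and 2787 under Fk. Without Fk 48 h replicate 3, 3 were called under Fk. Over the single arrays left out, calls among all genes under Fk ran from 1297 to 2787. MIOX, the renal enzyme that breaks down myo-inositol, read 10.18, 10.04 and 9.50 in control 48 h arrays against 8.60, 8.33 and 8.16 in control 12 h arrays, a rise of 1.54 (adjusted p = 0.00280). Under Fk it read 10.45, 10.28 and 9.59 at 48 h against 8.51, 8.34 and 8.29 at 12 h, a rise of 1.72 (adjusted p = 0.00157). None of the 9 was called by limma between Fk and control at either time. An unadjusted p under 0.05 was found for 2 at 48 h and 0 at 12 h (5.18% and 6.71% of all genes). At 48 h the effect was negative for 7 of 9, with a median of -0.29 against 0.02 over all genes. GATM, which makes the creatine precursor guanidinoacetate, differed by -0.86 at 48 h (adjusted p = 0.958), by -0.47 without Fk 48 h replicate 1 and by -0.17 with the mean of its probe sets. CDH16, the kidney cadherin, differed by -0.64 (adjusted p = 0.923), by -0.35 without Fk 48 h replicate 3 and by -0.25 with array quality weights.

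The tested genes with the profile most like each member over the 12 arrays were found by the root mean square difference after centring each gene on its own mean. For SOX9 these were FOSL1, a subunit of AP-1, at 0.746 log2 units, and RUSC1-AS1 at 0.869, where the median over all genes was 1.87. FOSL1 read 5.88, 7.37 and 7.47 in Fk 48 h arrays, 5.08, 6.01 and 6.53 in control 48 h arrays, 8.96, 8.52 and 4.78 in Fk 12 h arrays, and 8.63, 8.25 and 8.92 in control 12 h arrays. It was low on Fk 12 h replicate 3 as SOX9 was. That array was among those used to pick FOSL1 for its likeness to SOX9, so the shared low value is part of the choice. On that array 1091 tested genes lay more than 1 log2 unit below the others of the group. For the other members the closest were MITF and CEP135 for HAVCR1, RUSF1 and SIL1 for LCN2, C12orf57 and TMEM59 for CLU, GLO1 and HMGN4 for VIM, QPRT and WNK2 for SPP1, and RAI14 and ALCAM for TNFRSF12A. MITF lay 0.173 from HAVCR1, against a median of 0.630 over all genes, and SPP1 and VIM varied so little that likeness says little about them. RUSC1-AS1 is an antisense gene, and whether its probe set reads it alone was not tested.

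**Figure D4:**
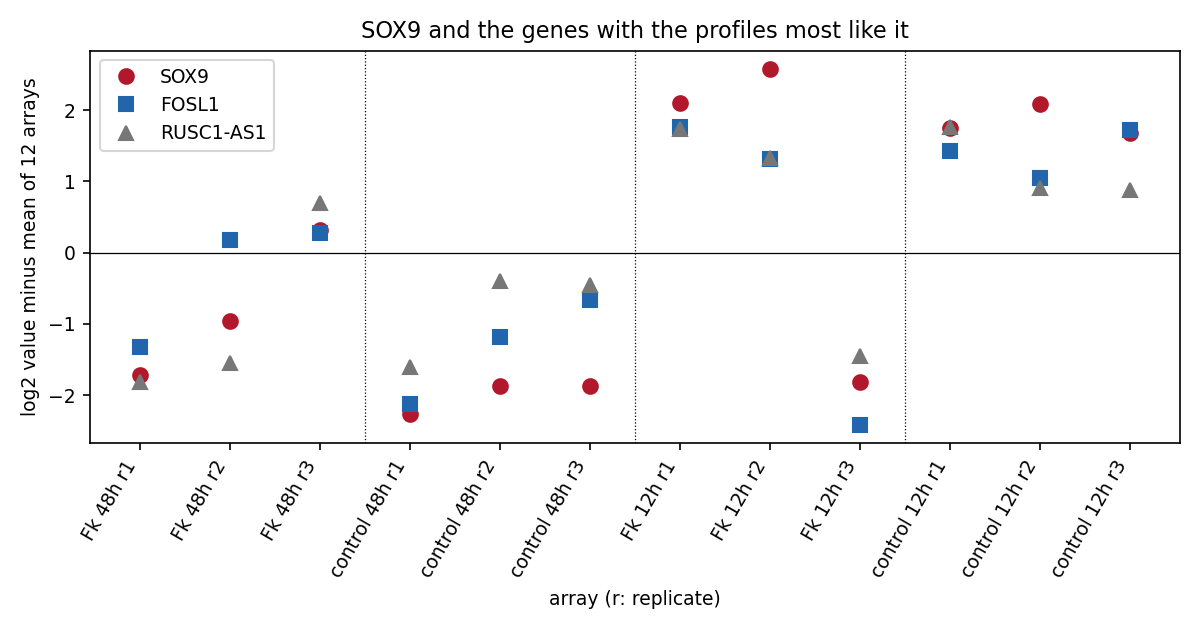
Log2 value minus the mean of 12 arrays (y axis) of SOX9, FOSL1 and RUSC1-AS1 on each array (x axis, r for replicate; dotted lines part the groups). The 3 genes are high in control 12 h arrays and in 2 of the 3 Fk 12 h arrays, and low on Fk 12 h replicate 3. FOSL1 and RUSC1-AS1 were picked for their likeness to SOX9 on these same arrays.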

How the data were processed

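RNA of 12 HK-2 samples was measured on Affymetrix arrays as biotin-labelled cRNA. The authors deposited log2 values (by their range), 1 per probe set, made with GCRMA, per the submitters' processing notes. GCRMA's version, and whether these arrays were normalized with others, are not given in the sources used here. Groups came from the labels. Of 54675 probe sets, 41097 carry 1 symbol in GEO's platform annotation, 1801 several and 11777 none; only those with 1 symbol were used, so TNFSF12, whose probe sets carry several, is given no value.

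In R 4.3.3, limma 3.58.1 fitted the 4 group means over 12 arrays, with the spread moderated by eBayes (prior degrees of freedom 2.44, residual 8). Tests were two-sided, p-values were adjusted by Benjamini-Hochberg over the 10784 genes, and a gene was called at an adjusted p under 0.05. Compared were Fk and control at each time, the mean and the difference of these effects, and 48 h and 12 h within each treatment. Probe sets of the members were also fitted among all 21899 probe sets past the level. The fit was tested on simulated data. From each list, up to 4 genes with the smallest p per comparison were named, and for each tested member the 2 genes with the most similar profile. The members and lists were chosen with earlier results of these data known. Older symbols CYR61 and CTGF were read as CCN1 and CCN2. Gene positions and promoters are those of RefSeq (GRCh38.p14); 5 of the 8 members have a promoter in the table used. Besides the reported fit, 24 other settings were run, 12 of them without a single array; the rest changed the filter, the probe set rule, the normalization, the moderation, the array weights, the arrays in the fit or a block for the replicate number. Figures were drawn with matplotlib 3.10.9.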

Additional observations from a re-analysis of the deposited data

Results flagged for a closer look

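VCAM1, one of the other injury genes, had Fk effects of opposite sign at the 2 times on every array. It read 5.48, 5.50 and 6.05 in Fk 48 h arrays against 5.16, 4.58 and 5.09 in control 48 h arrays, and 5.95, 6.03 and 4.69 in Fk 12 h arrays against 6.31, 6.31 and 7.27 in control 12 h arrays. The effect was +0.74 at 48 h and -1.07 at 12 h, a difference of 1.81 (interval 0.62 to 3.00). The limma test of that difference gave an unadjusted p of 0.00666 and an adjusted p of 0.996, so it did not pass, and without Fk 12 h replicate 3 the difference was 1.38 and the effect at 12 h -0.64. It was singled out because the arrays lay on opposite sides at the 2 times. Its interval and p thus come from the same values that chose it. Over all genes, 6.49% lay apart and lower under Fk at 12 h, and 6.14% apart and higher at 48 h. The share of genes that did both was not counted.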

How the results depend on the processing

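No member was called between Fk and control at 12 h, at 48 h, in their mean or in their difference under any setting tried. Over all genes, weighting the arrays by quality changed the counts of calls most, to 156 at 12 h, 94 at 48 h and 527 for their mean, and to 4920 in control cells and 5345 in Fk cells between the times. Without any single array, the counts ran from 0 to 3 at 12 h, from 0 to 1 at 48 h, from 0 to 2 for the mean, from 1060 to 3438 between the times in control cells and from 1297 to 2787 in Fk cells. At 48 h the count was 1 with no filter, with a stricter filter or with only the groups compared, and 4 with the mean of a gene's probe sets; for the mean effect it was 0 with no filter or with trend and robust moderation and 2 with the mean of probe sets. With only the groups compared, 831 genes were called in Fk cells.

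Of the members, 0 to 3 were called between the times in control cells without any single array, and 0 to 1 in Fk cells; array weights gave 4 in Fk cells (HAVCR1, LCN2, SOX9 and VIM). Of the 40 other injury genes, 3 to 18 were called in control cells and 1 to 18 in Fk cells over all settings, with 18 in both under array weights and 1 in Fk cells with only the groups compared. Of the 14 partners, 0 to 7 were called in control cells, 0 to 4 in Fk cells, and 1, ITGB5, between Fk and control at 48 h under array weights. SOX9 in control cells was not called with no filter (adjusted p = 0.0540), and VIM was not with the mean of its probe sets (0.186) or with quantile normalization again (0.0849).

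The same-numbered arrays' deviations from their group means correlated at 0.0410, 0.265 and 0.163 at 12 h. At 48 h these correlations were 0.798, -0.0250 and 0.606. The labels do not say what arrays of 1 number share, and whether they share more than the number was not tested. With the number as a block within each time, 1 gene was called at 12 h and 0 for the mean; with the block across times 0 for the mean; and with the block and without Fk 12 h replicate 3, 3 at 12 h, 4 at 48 h and 4 for the mean. The block changed no member's call.

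Signs that turned belonged to Fk effects and time changes that were not called. With array weights, the effect at 12 h became 0.035 for HAVCR1 and 0.38 for SOX9, the effect at 48 h 0.0036 for SPP1, and the time change of TNFRSF12A in Fk cells -0.0015. With the block and without Fk 12 h replicate 3, the effects at 12 h were 0.079 for HAVCR1 and 0.43 for SOX9. The mean of its probe sets gave CLU -0.036 at 48 h, and its probe set 222043_at -0.18 at 48 h and -0.084 for time under Fk; SPP1's 1568574_x_at gave -0.093 at 12 h. Without any single array the effect at 48 h ran from -0.068 to 0.13 for CLU, -0.67 to 0.10 for HAVCR1, -0.21 to 0.99 for LCN2, -0.15 to 0.025 for SPP1 and -0.17 to 0.13 for TNFRSF12A; the effect at 12 h from -0.40 to 0.12 for HAVCR1, -0.36 to 0.024 for LCN2 and -1.69 to 0.51 for SOX9; and the time change under Fk from -0.12 to 0.036 for SPP1 and -0.030 to 0.27 for TNFRSF12A.

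With 3 arrays a group, intervals were widest for SOX9, LCN2 and HAVCR1. PROM1 was below the level on all arrays.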
